A study of Arabidopsis thaliana with 12 samples.

Results

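The genes described here are those whose transcripts were lower in replicate number 2 than in replicate number 1 in every one of 6 plant genotypes. They are 147 probe sets of 11561 tested on the ATH1 array. A probe set, the group of short probes that measures a transcript, was tested when its log2 signal was above 4 in at least 2 of 12 arrays. The members were chosen by the difference between the numbers itself, number 1 minus number 2, which had to reach 1.2 on the log2 scale (2.3-fold) in each of the 6 groups. Of the tested probe sets 152 met that rule, or 1.31%, and 5 of them (CCL, XERICO, DFR, COR15A and COR15B) are left out by name in the rule. In the opposite direction 212 tested probe sets met the same threshold. The deposited tables pair 67 members with 1 gene, 3 with several genes and 77 with none, so gene names cover 45.6% of the members and 52.5% of all tested probe sets.

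Leaf transcripts of Arabidopsis change through the day and the night, and with temperature, water status and sugar supply. In the light a leaf makes starch and chlorophyll. In the dark it breaks the starch down to sugars through glucan water dikinases, amylases and the disproportionating enzyme DPE1, while many genes of growth, wax and stress protection follow clock and light signals. Cold and drought raise dehydrins and small membrane proteins, partly through abscisic acid (ABA), the hormone that closes stomata.

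Each of the 6 groups had 2 arrays, labelled 1 and 2. The groups were wild type (wt), the ABA-deficient mutant aba3-1, in which the gene of molybdenum cofactor sulfurase is mutated, and 4 lines named S14-150, S15-118, S58-2 and S82-2. The series describes recessive suppressors of aba3-1 found by infrared thermography, and the 4 lines are taken to be these, which then also carry aba3-1. All groups were untreated plants grown on compost at 21 °C under 8 h light and 16 h dark, and RNA came from aerial parts. The labels give no ecotype, plant age or time of harvest. The labels do not say what the replicate numbers stand for, nor whether a number marks separate plants, a sowing or a harvest, so p-values measure only how far these samples vary, and that variation may be technical.

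Array medians over the tested probe sets lay between 5.72 and 5.77 log2, with no shift between the numbers. These values are after GCRMA processing, so alike medians do not show that the samples were alike before it. Extracted RNA was 8.4 to 15 µg for the number 1 samples and 5.1 to 12.1 µg for the number 2 samples, and each array received label made from 20 µg of amplified RNA. RCA, the leaf gene of Rubisco activase, read 12.5 to 13.4 log2 on the 12 arrays, whereas the root peroxidase probe sets and that of FMA, a regulator of guard cell formation, did not pass the filter. The control probe set for the 3′ part of actin read 11.0 to 11.4 log2 in number 1 and 10.1 to 10.7 in number 2, so it too was lower in number 2. Its distance to the 5′ part, a measure of RNA quality, was alike at 1.02 to 1.46 and 1.07 to 1.44 log2. The middle part of actin read 9.77 to 10.38 in number 1 and 9.02 to 9.6 in number 2, without overlap. The 5′ part read 9.54 to 10.4 and 8.9 to 9.58, with a narrow overlap. The ubiquitin, GAPDH and 25S ribosomal controls overlapped between the numbers. Ubiquitin 3′ read 11.85 to 12.29 in number 1 and 11.79 to 12.43 in number 2. GAPDH 3′ read 10.22 to 11.4 and 9.94 to 10.35, and GAPDH 5′ 10.14 to 11.3 and 10.01 to 10.51. The 25S ribosomal control read 3.77 on the S58-2 number 1 array and 7.19 to 9.78 on the other arrays. The part of these differences in the results was not tested. In whole aerial parts, fewer cells of a type and less RNA per cell cannot be told apart.

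Across the members the median over groups of the difference was 2.04 log2 in the middle member, a 4.13-fold lower signal in number 2. It ran from 1.32 to 4.66 log2, or 2.50-fold to 25.3-fold. It reached 2 log2 in 80 members, 3 log2 in 22 and 4 log2 in 3, while the corresponding median over all tested probe sets was 0.03. These differences chose the members and are given as a description. The groups were alike in size, with medians over the members of 2.16 in wt, 1.95 in aba3-1, 2.11 in S14-150, 2.04 in S15-118, 2.16 in S58-2 and 2.07 in S82-2. The number 1 and number 2 arrays did not overlap in 139 members and overlapped in 8. The rule that chose the members favours this, and it was not counted over all tested probe sets. In 39 members all 6 number 2 values were at or under 4, the filter value. Low GCRMA signals can flatten out, so the size of their difference may be compressed. Another 44 members had some number 2 values there and 64 had none.

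**Figure D1:**
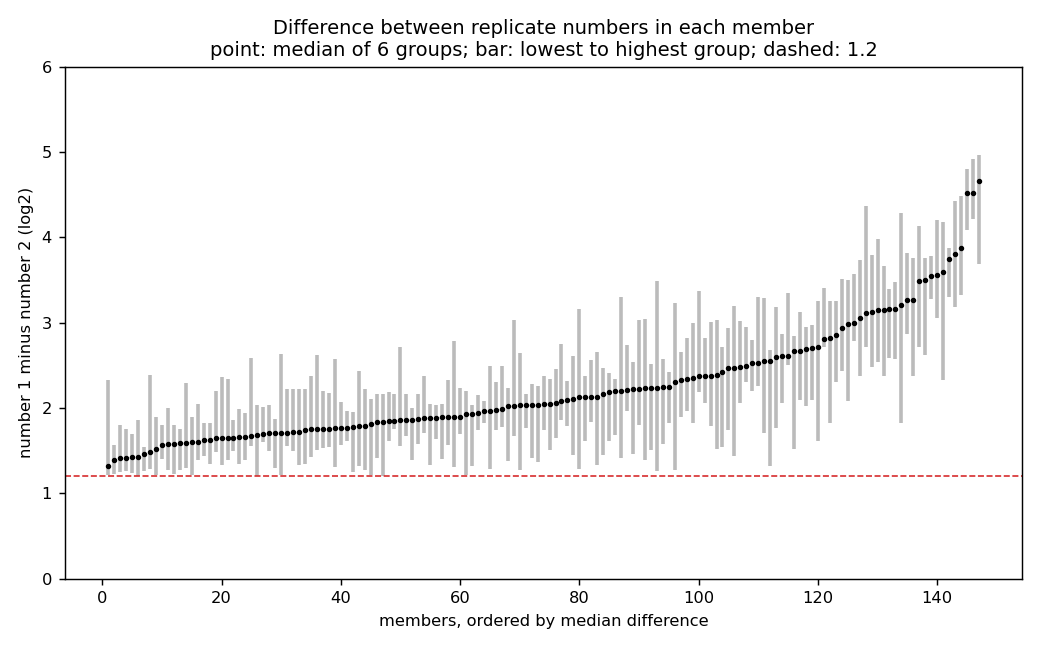
Difference between the replicate numbers (number 1 minus number 2, log2 signal) for the 147 members in rising order. Points are medians over the 6 groups, bars run from the lowest to the highest group, and the dashed line is the threshold of 1.2 used to choose members. The points run from 1.32 to 4.66.

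Genes of stress protection and protein folding held the largest difference. AT3G62550, of the universal stress protein family, read 9.10 in wt, 8.51 in aba3-1, 9.34 in S14-150, 8.43 in S15-118, 8.89 in S58-2 and 9.53 in S82-2 among the number 1 arrays. Its number 2 values, in the same order of groups, were 5.13, 4.82, 4.37, 3.69, 4.31 and 4.65 log2. The lowest number 1 array thus lay over 3 log2 above the highest number 2 array, and the median difference was 4.66. AT1G56300, a chaperone with a DnaJ domain that delivers clients to HSP70, read 7.24, 6.64, 6.99, 7.14, 7.26 and 7.52 in number 1. In number 2 it read 2.81, 2.55, 2.46, 2.63, 2.46 and 2.77, all under the filter value of 4. Fes1B, of a family of nucleotide exchange factors for HSP70, read 5.23 to 6.58 in number 1 and 2.49 to 3.49 in number 2. Both chaperone helpers were under the filter value on all number 2 arrays.

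AT4G30650 and AT4G30660 are adjacent genes that encode small membrane proteins of the low temperature and salt responsive family. AT4G30660 read 9.43, 9.01, 9.34, 9.46, 9.52 and 9.85 log2 in number 1, in the group order above, and 5.77, 5.58, 5.64, 5.68, 6.23 and 6.57 in number 2. AT4G30650 read 8.68 to 9.75 in number 1 and 6.16 to 6.86 in number 2. The pair was well above background on all 12 arrays. LTI30, a dehydrin that cold and ABA induce, read 6.48, 5.85, 5.75, 6.37, 7.15 and 7.22 in number 1 and 4.11, 3.98, 4.49, 4.23, 3.66 and 4.88 in number 2. AT4G14270, a small protein with the PAM2 motif that binds poly(A)-binding protein, as in ERD15, read 7.34, 7.26, 7.39, 7.30, 8.04 and 7.96 in number 1. Its number 2 values were 3.50, 3.96, 3.58, 3.86, 4.35 and 4.09. The 7 members of this role had median differences of 2.24 to 4.66.

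**Figure D2:**
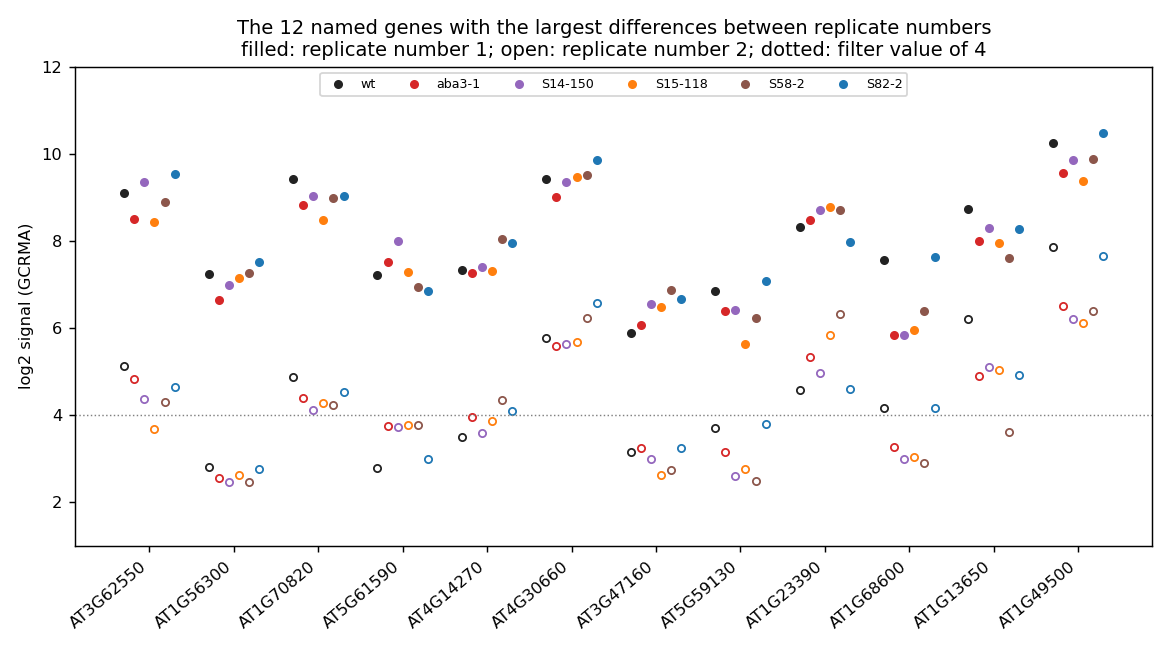
Log2 signal (GCRMA) on each of the 12 arrays for the 12 one-gene members with the largest median difference. Filled points are number 1 arrays, open points number 2 arrays, colours the 6 groups, and the dotted line the filter value of 4. Filled and open points of a gene do not overlap in any of the 12, which the choice of these genes by that difference favours. The genes run from AT3G62550 (median difference 4.66) to AT1G49500 (3.15).

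Starch and sugar metabolism gave 5 members. DPE1 turns short maltooligosaccharides of starch breakdown into longer chains and glucose in the chloroplast. It read 6.23, 5.65, 5.69, 5.48, 6.18 and 6.19 log2 in number 1 and 4.15, 4.44, 4.16, 3.95, 3.55 and 4.30 in number 2. AT5G39790, a protein that targets starch synthase to the granule, read 4.20 to 4.69 and 2.31 to 2.60. AT3G55760, a starch granule protein related to EARLY STARVATION1, read 4.53 to 5.41 and 3.02 to 3.40. All 3 were close to or under the filter value in number 2.

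AT1G70820, of the phosphoglucomutase family that interconverts glucose phosphates, had the largest difference of these 5. It read 9.43, 8.83, 9.04, 8.49, 8.98 and 9.02 in number 1 and 4.87, 4.39, 4.12, 4.27, 4.24 and 4.54 in number 2, a median of 4.52. AT5G41670, a 6-phosphogluconate dehydrogenase of the pentose phosphate pathway, read 7.27 to 7.73 and 5.39 to 6.09. Of the listed starch genes outside the members, PWD, a dikinase that phosphorylates starch for breakdown, had a median difference of 0.68. That of APL3, a large subunit of ADP-glucose pyrophosphorylase, was 1.28 and that of QQS -0.04.

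Among genes of light and the chloroplast, PORB encodes a light-dependent protochlorophyllide reductase of chlorophyll synthesis. It read 9.85 to 10.3 in number 1 and 7.79 to 8.62 in number 2. AT2G34620, of the mTERF family that acts in organelle gene expression, read 7.12 to 8.49 and 5.41 to 6.74, and AT3G15570, of the NPH3 family of phototropism, 6.67 to 7.71 and 4.97 to 5.99. The 4 tested genes of the photosynthesis list had a median difference of 0.10, and none of them was a member.

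There were 4 transcription regulators. AT5G61590, known as DEWAX, represses genes of cuticular wax synthesis and is more abundant in the dark. It read 7.21, 7.51, 8.00, 7.29, 6.95 and 6.86 in number 1 and 2.78, 3.76, 3.72, 3.77, 3.77 and 2.99 in number 2, so that all 6 number 2 arrays lay under 4. The B-box zinc finger gene AT2G47890 read 5.47 to 5.96 and 3.37 to 4.02. The MYB-type gene AT5G08520 read 5.25 to 5.68 and 2.90 to 3.94, and the GARP-type gene AT5G05090 read 4.70 to 5.54 and 2.85 to 3.70. The other 3 were thus low genes whose number 2 values were at or near the filter value.

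Protein turnover was represented by 6 members. AT1G23390, a Kelch-repeat F-box protein that targets chalcone synthase for degradation, read 8.33, 8.49, 8.70, 8.78, 8.70 and 7.98 in number 1. In number 2 it read 4.57, 5.34, 4.96, 5.83, 6.32 and 4.60, so it had a wide spread among the number 2 arrays. AT3G47160, a protein with a RING domain as found in ubiquitin ligases, read 5.88, 6.08, 6.55, 6.49, 6.88 and 6.66, against 3.16, 3.25, 2.99, 2.63, 2.75 and 3.25. The subtilase AT5G59130, a serine protease, read 6.85, 6.38, 6.42, 5.64, 6.24 and 7.09, against 3.71, 3.15, 2.60, 2.77, 2.50 and 3.79. A second subtilase, AT5G45650, stayed higher in number 2, at 5.44 to 6.43, with 7.72 to 8.40 in number 1. The aspartyl protease AT4G33490 and the cathepsin B-like protease AT1G02300 had median differences of 1.76 and 1.98.

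Transport proteins were 4. AT1G68600, of the aluminium-activated malate transporter family of anion channels, read 7.56, 5.84, 5.83, 5.96, 6.38 and 7.64 in number 1 and 4.16, 3.26, 3.0, 3.04, 2.90 and 4.16 in number 2. In both numbers wt and S82-2 were the highest groups. The major facilitator AT1G64890 had a median difference of 2.46, the HPP-type membrane protein AT5G62720 of 2.08 and the cation efflux protein AT1G51610 of 1.97. Cell wall proteins were the pectin acetylesterase AT1G57590 (2.20), the pectin lyase-like AT3G09540 (1.66) and AT5G62350 (1.46), of the family that inhibits invertases or pectin methylesterases. AT5G62350 was abundant on all arrays, at 10.5 to 10.9 log2 in number 1 and 8.91 to 9.61 in number 2.

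Other enzymes made up 10 members. AT1G73600, of the phosphoethanolamine methyltransferases that make the head group of phosphatidylcholine, read 11.2 to 11.8 in number 1 and 8.97 to 10.1 in number 2. The β-glucosidase gene BGLU44 read 10.0 to 10.9 and 7.09 to 8.10. Both were thus well above the filter value in both numbers. The acid phosphatase AT2G39920 had the largest median difference of the 10, at 3.12. BGLU44 had 2.49, the 2-oxoglutarate-dependent oxygenase AT5G43440 2.42, the α/β hydrolase AT1G73750 2.37, the tropinone reductase-like AT2G29310 2.05 and the acyltransferase AT3G50270 1.76. The GDSL esterases AT4G01130 and AT1G31550 and the hydrolase AT5G47330 had 1.84, 1.72 and 1.32.

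Of 2 defence-type proteins, the defensin-like AT2G43550 read 7.29 to 8.75 in number 1 and 4.51 to 5.35 in number 2, and the thaumatin-like AT4G36010 read 3.74 to 5.75 and 2.36 to 2.59. Signalling and other proteins with a known domain were 9, with median differences of 1.42 to 2.69. They were the FCS-like zinc finger AT1G74940, AT5G60680 of the S40 senescence family, AT4G16146, which resembles cAMP-regulated phosphoproteins, the AIG1-like GTPase AT1G33970, the LIM-domain actin-binding WLIM2a, the kinase AT1G54820, the DNA glycosylase AT5G44680, AT1G27210 with ARM repeats, and AT4G14230 with a CBS domain. The remaining 14 one-gene members are given without a role.

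Among those 14, AT1G13650 read 8.74, 8.00, 8.29, 7.95, 7.60 and 8.28 in number 1 and 6.20, 4.89, 5.10, 5.03, 3.62 and 4.93 in number 2. AT1G49500 read 10.2, 9.55, 9.86, 9.37, 9.88 and 10.5, against 7.87, 6.50, 6.20, 6.12, 6.39 and 7.65. The highest signals of any one-gene member were those of AT1G13930, at 11.9 to 12.6 and 9.91 to 10.3. The other 11 were AT2G03310, AT1G12845, AT2G25200, AT2G46550, AT2G20670, AT1G48330, AT5G11070, AT5G25280, AT1G70420, AT5G62210 and AT3G60380, with median differences of 1.39 to 2.82.

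The one-gene members were spread over the nuclear chromosomes, with 21 on chromosome 1, 10 on each of 2 and 3, 9 on 4 and 17 on 5. Besides the adjacent pair, AT2G39900 (WLIM2a) and AT2G39920 lie 2 genes apart, and AT4G14230 and AT4G14270 lie 5 apart. Just inside the threshold, the smallest of the 6 differences was 1.2 for AT4G01130, 1.21 for DPE1 and 1.21 for AT5G47330. Just outside it was 1.19 for AT4G32340, for Cpn60beta2, a chloroplast chaperonin subunit, and for AT1G18360.

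Of the fixed gene lists, the cold regulon had 5 tested genes. LTI30 was a member, and COR15A, COR15B and COR47 are left out by name in the rule, of which COR47 did not meet the threshold. The fifth, STZ, a zinc finger repressor of stress responses, had a median difference of -1.33 and was thus higher in number 2. The clock list had 3 tested genes and no member. CCL met the threshold and GI did not, with a smallest difference of 0.66, and both are left out by name. AT5G52660 had a median of -0.525. In the list of ABA-responsive genes the only tested gene, XERICO, is left out by name. The 7 tested flavonoid genes gave no member, DFR being left out by name. In that list 2 differed by at least 1 log2 towards number 1 and 3 towards number 2, among them UGT78D2 (-3.81), a flavonoid glucosyltransferase, and HYH (-4.72), a light-signalling bZIP factor. Over all tested probe sets 4.70% differed by at least 1 log2 towards number 1 and 4.97% towards number 2. The lists of dark and starvation genes, heat shock, salicylate defence and shade growth had 1, 1, 2 and 1 tested genes, none of which was a member or differed by 1 log2.

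Differences between genotypes were called in many of the members, but only once the number was taken into account. limma was fitted over all 12 arrays with the number as an additive block, and p-values were adjusted over all 11561 probe sets. The differences between group means do not use the differences that chose the members. Their standard errors do, since the residual of this fit is the variation of the number 1 minus number 2 difference among the 6 groups. In the F test over the 6 groups 50 of the 147 members were called at an adjusted p under 0.05, or 34.0%, where 14.1% of all tested probe sets were. The median residual standard deviation in this fit was 0.231 log2 in the members and 0.188 in all tested probe sets. The count was 28 without the S82-2 number 1 array and 21 with no filter on low values.

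Without the block none of the 147 members was called in any of the 10 tests, since the difference that chose them then counts as spread within groups. At an unadjusted p under 0.05 limma without the block gave 1 member each for aba3-1 with wt, S82-2 with aba3-1 and S58-2 with wt, and 0 in the other 7 tests. The unadjusted shares of all tested probe sets were 7.41%, 7.66% and 17.7% in these 3 comparisons, 9.86% in the F test and 1.65% to 13.1% in the other 6. At the adjusted threshold of that fit the shares of all tested probe sets called were 1.30% in the F test, 0.450% for aba3-1 with wt, 0.0605% for S14-150 with wt, 1.38% for S15-118 with wt, 3.23% for S58-2 with wt and 0.00865% for S82-2 with wt. Against aba3-1 they were 0.0173% for S14-150, 0.0346% for S15-118, 0.00865% for S58-2 and 0.502% for S82-2. All counts of called members that follow come from the fit with the block. Counts with an array left out or with no filter, above and below, cover the members only. The shares of all tested probe sets called in those fits were not counted.

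The range of the 6 group means had a median of 0.765 log2 over the members and 0.50 over all tested probe sets. It reached 1 log2 in 46 members, or 31.3% (12.6% of all tested). Both wt and S82-2 lay above the other 4 group means in 50 members, or 34.0%, against 20.6% of all tested probe sets, and below them in 15, or 10.2%, against 17.8%.

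**Figure D3:**
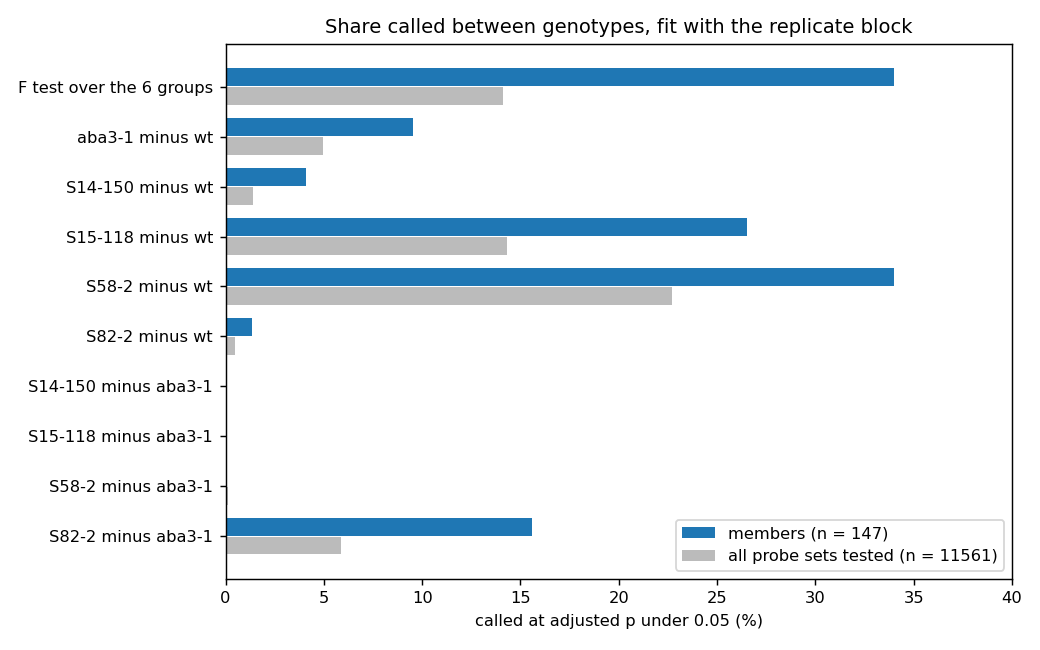
Share of probe sets called at an adjusted p under 0.05 (limma with the replicate block), for the 147 members (blue) and all 11561 tested probe sets (grey), in the F test and 9 comparisons of groups. In the F test the bars reach 34.0% and 14.1%, and 3 comparisons of lines with aba3-1 have no called member.

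In aba3-1, 14 members (9.52%) differed from wt, against 4.98% of all tested probe sets. Of these, 9 were lower in aba3-1 (1.71% of all tested were) and 5 were higher (3.27%). AT1G68600, the malate transporter family member, read 7.56 and 4.16 in wt and 5.84 and 3.26 in aba3-1. Its number 2 values were under the filter value of 4 in every group but wt and S82-2. It fell by 1.31 log2 (SE 0.23, limma adjusted p = 0.0115), by 1.72 in number 1 and 0.90 in number 2. AT2G34620 of the mTERF family read 8.49 and 6.74 in wt and 7.52 and 5.86 in aba3-1, lower in both numbers. Its difference was -0.925 log2 (SE 0.17, limma adjusted p = 0.0153). The pectin lyase-like AT3G09540 read 6.38 and 4.63 in wt and 5.65 and 4.05 in aba3-1, a difference of -0.655 (SE 0.15, limma adjusted p = 0.0326). The 5 higher and 6 of the lower members have no single paired gene.

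All 14 moved the same way in both numbers, which the call itself favours, since disagreement between the numbers enters the residual of the blocked fit. Over all members the sign was shared by the numbers in 71.4%, near the 68.1% of all tested probe sets. Shares of all tested probe sets called with an array left out were not counted. The count of 14 members changed when an array was left out. It was 1 without the aba3-1 number 1 array, 7 without aba3-1 number 2, 8 without wt number 1, 6 without wt number 2 and 22 without either S58-2 array. It was 4 when no filter was applied, and the adjusted p was then 0.0904 for AT1G68600 and 0.0660 for AT2G34620.

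S82-2 differed from aba3-1 in 23 members (15.6%), against 5.86% of all tested probe sets. It was higher than aba3-1 in 16 (1.57% of all tested) and lower in 7 (4.29%). This comparison shares the aba3-1 arrays with the previous one. AT1G68600 read 7.64 and 4.16 in S82-2, close to the wt values, and was 1.35 log2 higher than in aba3-1 (SE 0.23, limma adjusted p = 0.00824). The tropinone reductase-like AT2G29310 read 7.66 and 5.61 against 6.35 and 4.84, higher by 1.04 (SE 0.19, limma adjusted p = 0.0107). AT4G30660, of the low temperature and salt responsive family, read 9.85 and 6.57 against 9.01 and 5.58, higher by 0.915 (SE 0.17, limma adjusted p = 0.0120).

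The defensin-like AT2G43550 was 0.81 log2 higher in S82-2, with 1.16 in number 1 and 0.46 in number 2 (limma adjusted p = 0.0354). The aspartyl protease AT4G33490 was 0.795 higher (1.13 and 0.46, limma adjusted p = 0.0379) and AT1G70420 was 0.785 higher (limma adjusted p = 0.0318). All number 2 values of AT4G33490 were under the filter value of 4. Those of AT1G70420 were near it, at 3.44 in aba3-1 and 4.09 in S82-2. All 23 called members moved the same way in both numbers, which the call again favours. Called or not, 78.9% of all 147 members did so, against 68.6% of all tested probe sets. The count was 3 without S82-2 number 1, 11 without S82-2 number 2, 3 without aba3-1 number 1, 13 without aba3-1 number 2, and 3 with no filter, which left the adjusted p of these 6 genes between 0.0572 and 0.128.

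**Figure D4:**
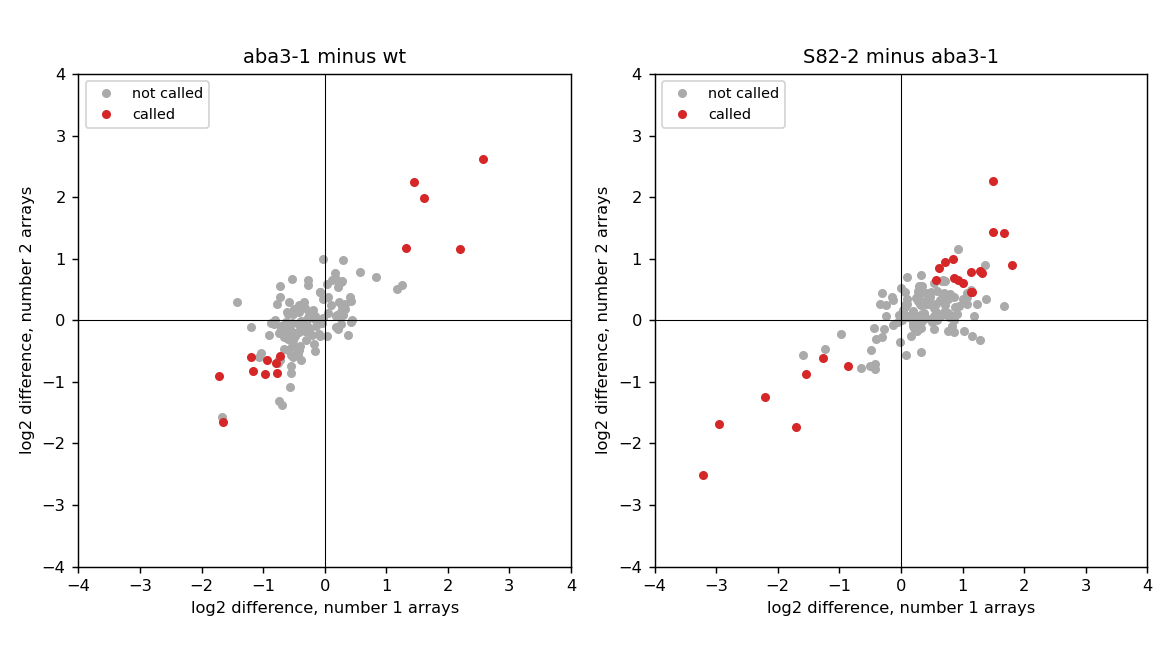
Log2 difference of aba3-1 from wt (left) and of S82-2 from aba3-1 (right) for each of the 147 members, measured among number 1 arrays (horizontal) and among number 2 arrays (vertical). Red points are the 14 and 23 members called with the replicate block. All of them have the same sign in both numbers, which the call itself favours.

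The other 3 lines had no called member against aba3-1. At an unadjusted p under 0.05, limma with the block gave 15 members (10.2%) for S14-150, 19 (12.9%) for S15-118 and 30 (20.4%) for S58-2, against 7.46%, 5.25% and 12.8% of all tested probe sets. Few probe sets were called at all in these comparisons, 0.0865%, 0.0865% and 0.104% of those tested. Without the S58-2 number 1 array some members were called for S58-2 against aba3-1. That fit leaves S58-2 with 1 array, and its share of all tested probe sets called was not counted.

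Against wt, S15-118 differed in 39 members (26.5%), where 14.3% of all tested probe sets did. It was lower than wt in 31 members (6.89% of all tested) and higher in 8 (7.45%). AT1G68600 was lower by -1.36 log2 (SE 0.23, limma adjusted p = 0.00515) and AT1G49500 by -1.31 (SE 0.27, limma adjusted p = 0.0119). AT1G49500 read 10.2 and 7.87 in wt and 9.37 and 6.12 in S15-118. AT2G34620 differed by -1.145 (limma adjusted p = 0.00278), the subtilase AT5G59130 by -1.075 (limma adjusted p = 0.0129), and AT3G09540 by -1.055 (limma adjusted p = 0.00189). The universal stress protein gene AT3G62550 read 9.10 and 5.13 in wt and 8.43 and 3.69 in S15-118 (-1.055, limma adjusted p = 0.0379). Fes1B differed by -1.015 over both numbers (SE 0.19, limma adjusted p = 0.00866). The number 2 values of AT5G59130 (3.71 in wt, 2.77 in S15-118) and Fes1B (3.49, 2.49) were under the filter value of 4. In S15-118 those of AT3G09540 and AT3G62550 were also under it, at 3.70 and 3.69. The count was 12 without S15-118 number 1, 19 without S15-118 number 2, 14 without wt number 2, and 17 with no filter.

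S58-2 differed from wt in 50 members (34.0%), against 22.7% of all tested probe sets. It was lower in 30 (12.2%) and higher in 20 (10.5%). AT1G13650 read 8.74 and 6.20 in wt and 7.60 and 3.62 in S58-2, a difference of -1.86 log2 (SE 0.27, limma adjusted p = 0.00138). AT2G34620 differed by -1.295 (limma adjusted p = 0.000848), the acyltransferase AT3G50270 by -1.28 (limma adjusted p = 0.000848) and AT1G68600 by -1.22 (limma adjusted p = 0.00533). The kinase gene AT1G54820 was lower by -1.015, with -0.48 in number 1 and -1.55 in number 2 (limma adjusted p = 0.0150). The F-box gene AT1G23390 was higher by 1.06, with 0.37 and 1.75 (limma adjusted p = 0.0273). The GDSL lipase AT1G31550 (1.00), BGLU44 (0.91), AT4G14270 (0.78) and the GTPase AT1G33970 (0.78) were also called higher. Also under the filter value of 4 in number 2 were AT3G50270 in S58-2 (3.68), and AT1G31550 (3.91) and AT4G14270 (3.50) in wt. The count was 31 without S58-2 number 2, 32 without wt number 1, 22 without wt number 2 and 27 with no filter.

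S14-150 differed from wt in 6 members (4.08%), all lower, against 1.39% of all tested probe sets, of which 0.675% were lower and 0.718% higher. AT1G68600 was lower by -1.445 (SE 0.23, limma adjusted p = 0.0216) and AT3G09540 by -0.83 (SE 0.15, limma adjusted p = 0.0304). On the S14-150 number 2 array they read 3.0 and 3.82, under the filter value of 4. The other 4 have no single paired gene. The count was 0 without either S14-150 array, without wt number 2 or with no filter, 1 without wt number 1, 3 without either S15-118 array and 13 without either S58-2 array.

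S82-2 differed from wt in 2 members (1.36%), against 0.467% of all tested probe sets. The GARP-type regulator AT5G05090 read 5.54 and 3.70 in wt and 4.70 and 2.85 in S82-2, a difference of -0.845 log2 (SE 0.15, limma adjusted p = 0.0498). Both number 2 values were under the filter value of 4. The second, higher in S82-2 by 1.41, has no paired gene. Without any 1 array of S82-2, wt, aba3-1 or S14-150, or with no filter, neither was called, and without either S15-118 array 1 was. All 5 comparisons with wt share its 2 arrays.

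**Figure D5:**
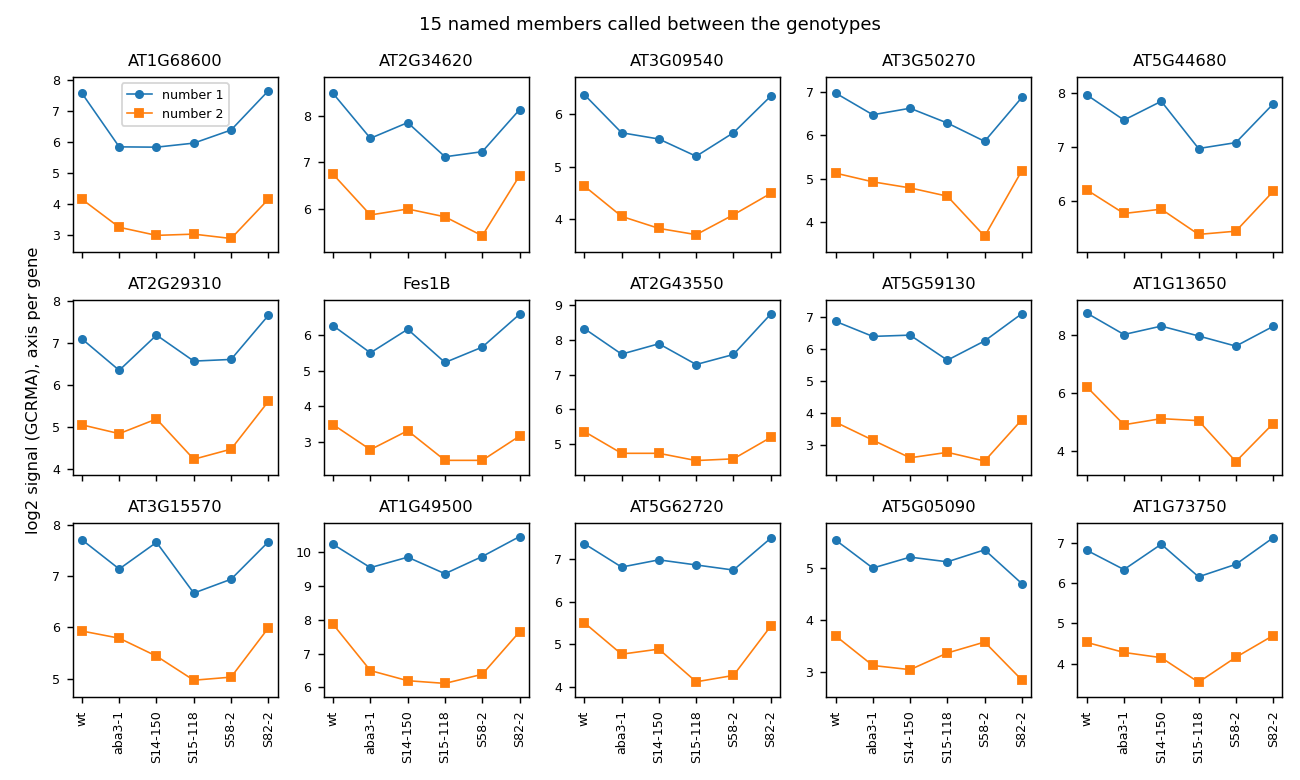
Log2 signal (GCRMA, a separate vertical axis for each gene) in the 6 groups for the 15 one-gene members with the lowest adjusted p in the F test with the replicate block. Blue circles are number 1 arrays and orange squares number 2 arrays, and lines only guide the eye between groups. AT1G68600 reads 7.56 and 7.64 in wt and S82-2 and 5.83 to 6.38 in the other groups of number 1.

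In the F test 21 of the 50 called members have 1 gene. The lowest adjusted p among these were 0.00317 for AT1G68600, 0.00320 for AT2G34620, 0.00446 for AT3G09540, 0.00501 for AT3G50270, 0.00858 for AT5G44680 and 0.00870 for AT2G29310 (limma). AT5G44680, the DNA glycosylase gene, had group means of 7.08 in wt, 6.63 in aba3-1, 6.84 in S14-150, 6.17 in S15-118, 6.25 in S58-2 and 6.99 in S82-2. AT3G15570 of the NPH3 family had 6.82, 6.46, 6.55, 5.82, 5.99 and 6.83 log2, and the HPP-type membrane protein AT5G62720 had 6.44, 5.79, 5.94, 5.50, 5.51 and 6.46. In these 3 genes wt and S82-2 had the 2 highest means, and S15-118 and S58-2 the 2 lowest. The α/β hydrolase AT1G73750 (limma adjusted p = 0.0303) had its highest mean in S82-2, 5.92, and its lowest in S15-118, 4.85.

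The F test called 34.0% of the members and 14.1% of all tested probe sets, and the role groups, of 2 to 10 members, were not tested against these shares. By role, it called 3 of the 7 stress genes (Fes1B, AT4G30660 and AT4G14270), 2 of the 3 light and chloroplast genes, 5 of the 10 other enzymes, 2 of the 6 turnover genes, 2 of the 4 transport genes, 1 of the 4 regulators, 1 of the 3 cell wall genes, 1 of the 2 defence-type genes, 1 of the 9 signalling and other genes and none of the 5 starch and sugar genes. Of the latter, AT1G70820 was lower in S15-118 than in wt, by -0.77 log2 (limma adjusted p = 0.0198). DPE1 and LTI30, the members from the fixed lists, were not called in any of the 10 tests in either fit. Over all 10 tests with the block, 65 members (44.2%) were called at least once, against 26.8% of all tested probe sets, and 82 in none.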

How the data were processed

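The authors deposited log2 signals of probe sets. The submitters' processing notes name GCRMA and no version. There is 1 column for each of 12 arrays. The log base is not stated and was taken as 2. The table holds 22810 probe sets. After 64 controls were left out, 11561 with a log2 value above 4 in at least 2 arrays were tested. Differences were rounded to 2 decimals before the threshold of 1.2 was applied. Gene names came from the platform's probe table and, for symbols, a RefSeq gene table.

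Group means were fitted with limma 3.58.1 in R 4.3.3 (lmFit, contrasts.fit, eBayes; 6 residual degrees of freedom, 5 with the block), Benjamini-Hochberg adjusted over all tested probe sets and tested on simulated data. The fit without a block was the planned base. Equal numbers pair the arrays: in all 15 pairs of groups their deviations from group means correlated, with r of 0.708 to 0.872 across probe sets. Having 2 arrays a group limits the precision.

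The members and gene lists were chosen with earlier results of these data known. Genes described array by array are the 12 one-gene members with the largest median difference and list members. For genotype they are up to 15 one-gene members called in the blocked F test and up to 6 per comparison. Further members named by role were chosen after their values were seen. Alternatives were no filter, arrays shifted to the same median, other thresholds and arrays left out. No sequences are shown.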

Additional observations from a re-analysis of the deposited data

How the results depend on the processing

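With a difference of at least 1.5 log2 the members were 89. At 1.0 they were 207, and leaving out each group in turn gave 151 to 178. Without the block no setting called a member, with each array left out in turn giving 0 to 0 in all 10 tests. The replicate block raised the counts to 50 (F test), 14 (aba3-1 with wt), 23 (S82-2 with aba3-1), 6, 39, 50 and 2 (S14-150, S15-118, S58-2 and S82-2 with wt). The counts that follow are with the block and cover the members only. Shares of all tested probe sets called were not counted with arrays left out, no filter, shifted medians or a size threshold. With no filter they were 21, 4, 3, 0, 17, 27 and 0, in the same order of tests. Without both S58-2 arrays aba3-1 had 22 and S14-150 13 against wt. At a size of at least 1 log2 they were 7 for aba3-1 with wt, 11 for S82-2 with aba3-1, and 3, 18, 19 and 1 for S14-150, S15-118, S58-2 and S82-2 with wt. Of the 89 members at 1.5 log2, 31 were called in the F test, 7 for aba3-1 with wt, 14 for S82-2 with aba3-1, 32 for S58-2 and 1 for S82-2 with wt. Arrays shifted to the same median gave 1 for S82-2 with wt. Leaving out 1 array at a time gave 28 to 55 (F test), 1 to 22 (aba3-1 with wt), 3 to 32 (S82-2 with aba3-1), 0 to 9 (S58-2 with aba3-1), and 0 to 13, 12 to 48, 22 to 59 and 0 to 2 for S14-150, S15-118, S58-2 and S82-2 with wt. The cause of these shifts was not tested.

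Without the block, leaving out 1 array unbalances the numbers within a group, so that the difference between the numbers enters the contrast and turned the direction of 18 of 24 named log2 differences. For S58-2 against wt the values ran from -3.85 to 0.13 for AT1G13650, -0.82 to 2.94 for AT1G23390, -2.325 to 0.295 for AT1G54820, -2.96 to 0.52 for AT1G68600. For S15-118 against wt the values ran from -2.935 to 0.315 for AT1G49500, -3.06 to 0.34 for AT1G68600, -3.425 to 1.315 for AT3G62550, -2.645 to 0.495 for AT5G59130. For S14-150 against wt the values ran from -3.145 to 0.255 for AT1G68600, -1.705 to 0.045 for AT3G09540. For S82-2 against aba3-1 the values ran from -0.39 to 3.09 for AT1G68600, -0.14 to 1.71 for AT1G70420, -0.975 to 2.595 for AT2G43550, -0.8 to 2.63 for AT4G30660, -0.305 to 1.895 for AT4G33490. For aba3-1 against wt the values ran from -3.01 to 0.39 for AT1G68600, -1.53 to 0.22 for AT3G09540. For S82-2 against wt the values ran from -1.77 to 0.08 for AT5G05090. None of the 24 turned with the block, whichever array was left out.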

Other observations

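The genotype changes with the smallest adjusted p were in members that have no gene in the tables used here, and these probe sets were singled out after their values were seen. 263539_at had group means of 3.56 log2 in wt, 6.16 in aba3-1, 4.76 in S14-150, 5.86 in S15-118, 6.70 in S58-2 and 3.29 in S82-2. Its F test with the replicate block gave a limma adjusted p of 8.57e-05, and its rise in aba3-1 was 2.57 among number 1 arrays and 2.62 among number 2 arrays. 259757_at had 5.79, 7.46, 6.79, 7.77, 8.12 and 5.74 in the same order of groups. Both were at their lowest in wt and S82-2, and the S14-150 mean was between these and the other groups. In the other direction 254232_at had 6.34, 4.69, 4.87, 3.75, 4.81 and 5.50, and 262891_at had 5.26, 4.46, 4.54, 3.95, 4.28 and 5.29. Both had their lowest mean in S15-118. Of the 50 members called in the F test 29 have no single paired gene, so most of the genotype calls among the members cannot be given a function here.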
